A study of Mus musculus with 12 samples.

Results

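Heat shock chaperones are described here through 10 mouse genes, Hspa1a, Hspa1b, Hspa8, Hsph1, Dnajb1, Bag3, Hsp90aa1, Hsp90ab1, Hspb1 and Hspd1. The members were the rows of the deposited gene matrix whose Ensembl identifier carries one of these symbols, and all 10 were found among its 54674 entries. The study sequenced bulk RNA from 12 mouse libraries, 3 in each of 4 groups labelled Ly6C tumor, Ly6C spleen, Ly6G tumor and Ly6G spleen. It set out to compare monocytic with polymorphonuclear myeloid-derived suppressor cells (MDSCs, myeloid cells of incomplete maturity that accumulate in animals with tumors), populations usually separated by the surface proteins Ly6C and Ly6G. The labels used here give no strain, age, treatment, tumor model or sorting gate for any group. Nothing in them ties a replicate to its own animal, so the p-values measure only the spread between these samples, which may be technical.

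Heat shock proteins hold unfolded polypeptides, refold them or pass them on for degradation. Unfolded protein in the cytosol releases heat shock factor 1 (HSF1), which binds inverted repeats of the letters GAA, called heat shock elements, in front of inducible chaperone genes. HSP70 proteins work in a cycle with J-domain partners that deliver substrate and with exchange factors that release it, HSP90 finishes the folding of many kinases and receptors, small heat shock proteins hold unfolded chains in solution, and HSP60 folds proteins inside mitochondria. In mouse myeloid cells, as elsewhere, Hspa8 and Hsp90ab1 are the forms made without stress, while Hspa1a and Hspa1b are the strongly inducible ones.

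The upstream sequence is shown for Hspa1a, Hspa1b, Hspb1 and Bag3, and a short stretch for Hspd1. RefSeq (GRCm38.p6) holds an upstream window for 7 of the 10 members, and the windows below are the 250 bases before the annotated start, 5′ to 3′ on the strand of the gene, with heat shock element matches in capitals. The search used the letters GAANNTTC and TTCNNGAA (2 repeat units, each its own reverse complement), and, for 3 units, GAANNTTCNNGAA and TTCNNGAANNTTC, which are each other's reverse complement and contain the 2-unit letters. The inducible pair, Hspa1a at chr17:34972157-34972406 on the minus strand and Hspa1b at chr17:34959239-34959488 on the minus strand, are shown because they differ at 3 of 250 bases. Hspb1 at chr5:135887669-135887918 on the plus strand has 2 matches, and Bag3 at chr7:128523333-128523582 on the plus strand has none.
Hspa1a: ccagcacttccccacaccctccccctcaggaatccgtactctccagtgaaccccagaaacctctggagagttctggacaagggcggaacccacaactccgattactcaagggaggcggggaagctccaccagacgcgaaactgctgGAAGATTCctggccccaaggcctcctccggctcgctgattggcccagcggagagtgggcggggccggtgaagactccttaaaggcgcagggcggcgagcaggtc
Hspa1b: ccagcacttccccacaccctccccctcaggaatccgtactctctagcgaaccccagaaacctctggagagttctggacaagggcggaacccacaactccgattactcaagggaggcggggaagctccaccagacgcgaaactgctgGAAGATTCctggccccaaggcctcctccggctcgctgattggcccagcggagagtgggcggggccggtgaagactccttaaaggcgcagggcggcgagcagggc
Hspb1: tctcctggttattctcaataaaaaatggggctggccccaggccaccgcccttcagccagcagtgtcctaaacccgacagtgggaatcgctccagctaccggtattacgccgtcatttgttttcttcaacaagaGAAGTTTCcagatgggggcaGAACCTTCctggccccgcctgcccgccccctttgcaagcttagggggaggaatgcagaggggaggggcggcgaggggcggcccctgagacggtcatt
Bag3: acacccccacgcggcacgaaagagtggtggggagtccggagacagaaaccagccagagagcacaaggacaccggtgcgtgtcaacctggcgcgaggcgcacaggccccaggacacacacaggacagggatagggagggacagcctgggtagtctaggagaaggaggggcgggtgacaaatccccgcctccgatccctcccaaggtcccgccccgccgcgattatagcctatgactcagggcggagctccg

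The match of Hspa1a and of Hspa1b begins 104 bases before the start in both genes, and those of Hspb1 begin 117 and 97 bases before it. A 2-unit match was present in 12.8% of all 32851 RefSeq windows of this length, so it is a common sequence. Hspd1 held an uncommon one. In the window before one of its RefSeq starts lies a run of 4 repeat units (TTCNNGAANNTTCNNGAA), 144 bases before that start at chr1:55088053-55088082 on the minus strand, within bases that other transcripts use as exon; it is shown with 6 flanking bases on each side.
Hspd1: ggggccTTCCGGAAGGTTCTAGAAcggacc
Runs of 4 units occurred in 7 of the 32851 windows (0.0213%) and runs of 3 units in 0.466%. The window before the other RefSeq start of Hspd1 held no match. Hsph1 had a 2-unit match in exonic bases that are not shown, Dnajb1 had none, and these matches describe letters only, not binding.

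Values are FPKM (fragments per kilobase of gene, scaled to the mapped fragments of the library) as the authors computed it, which allows levels of different genes to be compared per length. Total FPKM lay between 331681 and 449309 per library, and 10379 to 12337 genes reached 1 FPKM. Both tumor libraries numbered 3 stood apart by their share of mitochondrially encoded transcripts, 7.84% in Ly6C tumor and 11.9% in Ly6G tumor, against 3.07% to 5.57% in the other 4 tumor libraries and 1.68% to 2.87% in spleen. The tumor libraries also went against their labels as myeloid cells, though less so in monocyte and macrophage genes. Ly6g had 11.8 to 13.8 FPKM in Ly6C tumor and 31.5 to 54.1 FPKM in Ly6G tumor, against 131 to 209 FPKM in Ly6C spleen and 591 to 717 FPKM in Ly6G spleen. Ly6c2 had 6.35 to 8.16 FPKM in Ly6C tumor and 5.31 to 7.80 FPKM in Ly6G tumor. In spleen it had 223 to 272 FPKM under Ly6C and 170 to 237 FPKM under Ly6G, so the labels overlapped in both tissues. Ly6c1, the other gene of the Ly6C antigen, ran the opposite way, at 67.5 to 86.0 FPKM in Ly6C tumor and 44.8 to 64.7 FPKM in Ly6G tumor, against 13.1 to 15.4 FPKM in Ly6C spleen and 6.47 to 10.1 FPKM in Ly6G spleen. All 20 pan-leukocyte genes fell in tumor under both labels, with a summed level of 306 to 642 FPKM in Ly6C tumor and 829 to 1446 FPKM in Ly6G tumor, against 5954 to 6812 FPKM in Ly6C spleen and 7814 to 8261 FPKM in Ly6G spleen. Neutrophil genes summed to 1381 to 2617 FPKM in Ly6C tumor and 4273 to 8507 FPKM in Ly6G tumor, against 65090 to 101910 FPKM in Ly6C spleen and 126213 to 160278 FPKM in Ly6G spleen. Monocyte genes summed to 386 to 658 FPKM in Ly6C tumor, against 2204 to 3018 FPKM in Ly6C spleen (1 of 10 higher, 8 lower). Under Ly6G they summed to 1198 to 1843 FPKM in tumor, against 1624 to 2603 FPKM in spleen (2 higher, 6 lower). Macrophage genes had 0 of 10 higher and 4 lower in Ly6C tumor, at 125 to 234 FPKM against 161 to 343 FPKM in spleen. In Ly6G they had 0 higher and 7 lower, at 102 to 308 FPKM against 294 to 680 FPKM. These marker counts come from the limma test described below, in which 46.2% of all genes were higher and 30.5% lower in Ly6C tumor. In Ly6G tumor the shares were 51.5% and 24.7%. The 4 of 10 macrophage genes lower in Ly6C tumor lay near the share over all genes. The keratin Krt8 had 576 to 770 FPKM in Ly6C tumor and 356 to 574 FPKM in Ly6G tumor, against at most 0.263 FPKM in any spleen library. Of the 8 epithelial genes listed, only 2, Krt8 and Krt18, reached 1 FPKM in 3 libraries, and both did so through tumor alone. The others, Krt5, Krt14, Krt19 and Epcam among them, did not reach that level in tumor either. Krt5, Krt14 and Krt19 were listed at 0 in all 6 spleen libraries and Epcam at 0 in all 3 Ly6C tumor libraries.

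Heat shock chaperone transcripts were far more abundant in tumor than in spleen under both labels. The 10 members summed to 2954, 3306 and 3321 FPKM in Ly6C tumor, against 354, 567 and 330.4 FPKM in Ly6C spleen. Under the Ly6G label the sum was 2708, 2397 and 2679 FPKM in tumor, against 377, 371 and 490.0 FPKM in spleen. The members thus took 0.805% to 0.919% of all FPKM in Ly6C tumor and 0.707% to 0.817% in Ly6G tumor, against 0.0935% to 0.168% in Ly6C spleen and 0.0838% to 0.115% in Ly6G spleen. Because these are bulk samples, fewer cells of a type and less RNA per cell cannot be told apart, and the part of the marker genes above in the chaperone differences was not tested.

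**Figure D1:**
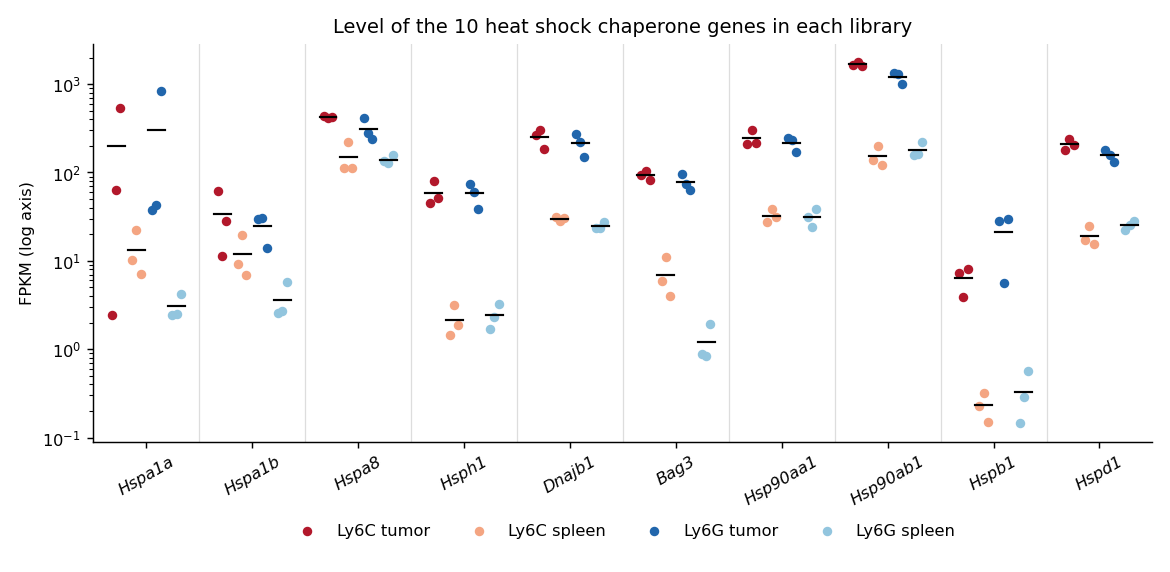
FPKM (log axis) of the 10 chaperone genes in each of the 12 libraries; each point is a library, the short lines are group means (n = 3) and colours mark the group. Tumor points lie above spleen points for every gene under both labels except for Hspa1a and Hspa1b under Ly6C, where they overlap.

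Tumor against spleen was tested for each label on log2(FPKM + 1) with limma, with Benjamini-Hochberg adjustment over all 13610 genes tested; all 10 members passed the filter of 1 FPKM in 3 libraries. In Ly6C libraries 8 of the 10 members were higher in tumor and 0 lower, where 46.2% of all genes tested were called higher and 30.5% lower. In Ly6G libraries all 10 were higher, where 51.5% of all genes were and 24.7% were lower. Hspb1 reached 1 FPKM in no spleen library, so its tumor libraries alone carried it through the filter; of the other 9 members, 7 were higher in Ly6C tumor and 9 in Ly6G tumor. The members differed from the background in size rather than in direction alone: their median change was 2.92 in Ly6C and 2.89 in Ly6G, against 0.27 and 0.43 over all genes. A change above the members' median was seen in 4.25% of genes in Ly6C and 4.39% in Ly6G. Both tumor groups lay wholly above their spleen groups for these same 8 and 10 members, which 47% of all genes did in Ly6C and 53.2% in Ly6G. Without both tumor libraries numbered 3 the counts were again 8 and 10.

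**Figure D2:**
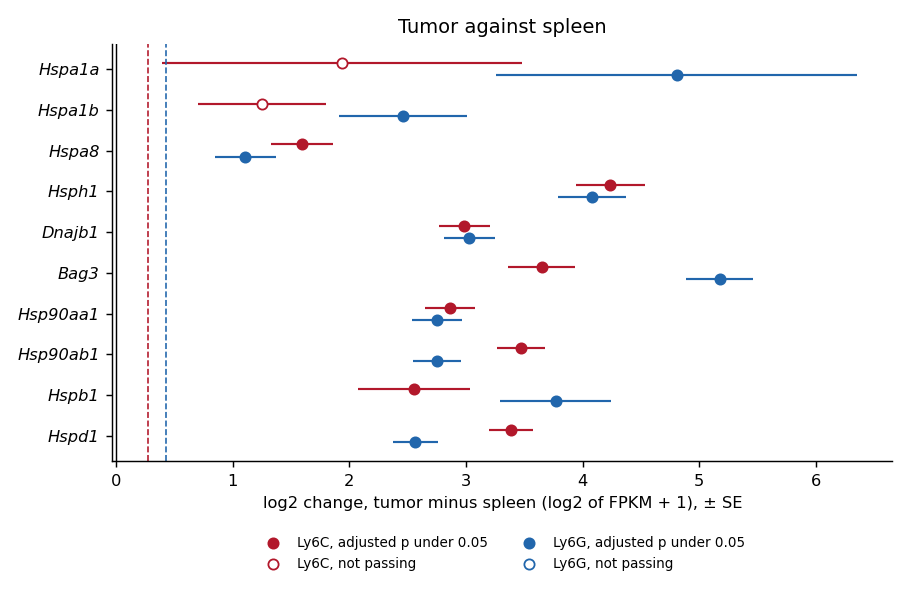
Change between tumor and spleen for each chaperone gene, on the log2(FPKM + 1) scale, with Ly6C above Ly6G in each row; bars are limma standard errors and each group has n = 3. Filled points pass at an adjusted p under 0.05; the dashed lines give the median of all genes tested in each label (0.27 and 0.43), which every member exceeds.

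The inducible HSP70 genes were the exception among the members. Hspa1a (ENSMUSG00000091971, chromosome 17, 34969190 to 34972156, minus strand) had 2.46, 62.9 and 537 FPKM in Ly6C tumor replicates 1, 2 and 3, against 10.1, 22.2 and 7.19 FPKM in Ly6C spleen. It had 37.3, 42.4 and 828 FPKM in Ly6G tumor, against 2.42, 2.53 and 4.19 FPKM in Ly6G spleen. One Ly6C tumor library lay below all 3 Ly6C spleen libraries, and both tumor libraries numbered 3 lay far above the other 10 libraries, of which 62.9 FPKM was the highest. The change was 1.94 ± 1.55 in Ly6C (SE; limma, adjusted p = 0.269) and 4.81 ± 1.55 in Ly6G (adjusted p = 0.0138). Without both tumor libraries numbered 3 it was 0.21 ± 0.97 in Ly6C (adjusted p = 0.853) and 3.36 ± 0.97 in Ly6G (adjusted p = 0.0109). Leaving out single libraries also decided it: without Ly6C tumor replicate 1 the Ly6C change was 3.85 (adjusted p = 0.0161), and without Ly6G tumor replicate 3 the Ly6G change did not pass (3.36, adjusted p = 0.0651).

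Hspa1b, the other inducible HSP70 (ENSMUSG00000090877, chromosome 17, 34956436 to 34959238, minus strand), ran differently across the same libraries. It had 61.9, 11.5 and 28.3 FPKM in Ly6C tumor, against 9.31, 19.7 and 6.99 FPKM in Ly6C spleen. In Ly6G tumor it had 30.2, 30.7 and 13.9 FPKM, against 2.55, 2.70 and 5.71 FPKM in Ly6G spleen. The Ly6C groups overlapped and the Ly6G groups did not. Its change was 1.25 ± 0.55 in Ly6C (limma, adjusted p = 0.0556) and 2.46 ± 0.55 in Ly6G (adjusted p = 0.00149). The Ly6C change passed with array weights (1.54, adjusted p = 0.00682), without Ly6C tumor replicate 2 (1.85, adjusted p = 0.00607) and without Ly6C spleen replicate 2 (1.65, adjusted p = 0.0242).

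These 2 genes cannot be measured apart with certainty. Their open reading frames were identical at 1919 of 1929 aligned positions (99.5%), with an identical run of 638 bases, and how the authors' counting treated reads that match both is not given in the sources used here. Their transcripts as a whole were 86.8% identical, since they differ outside the reading frame. In spleen the pair was split evenly: Hspa1a made up 50.7% to 53.0% of the summed FPKM in Ly6C spleen and 42.3% to 48.7% in Ly6G spleen. In tumor its share was 3.82%, 84.6% and 95% in Ly6C replicates 1, 2 and 3, and 55.3%, 58.0% and 98.4% in Ly6G replicates 1, 2 and 3. The sum of the pair removes the split between them, although the handling of reads that match both could still alter it. It was 64.3, 74.3 and 565 FPKM in Ly6C tumor, against 19.4, 42.0 and 14.2 FPKM in Ly6C spleen, and 67.4, 73.1 and 842 FPKM in Ly6G tumor, against 4.97, 5.23 and 9.90 FPKM in Ly6G spleen. As a sum, all 3 tumor libraries lay above all 3 spleen libraries under both labels, and replicates 1 and 2 of tumor were close to each other. The predicted gene Gm20481, whose annotated transcripts match the pair, had 1.06, 1.82 and 1.42 FPKM in Ly6C tumor and 3.21, 2.30 and 8.59 FPKM in Ly6G tumor, against at most 0.00533 FPKM in spleen.

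**Figure D3:**
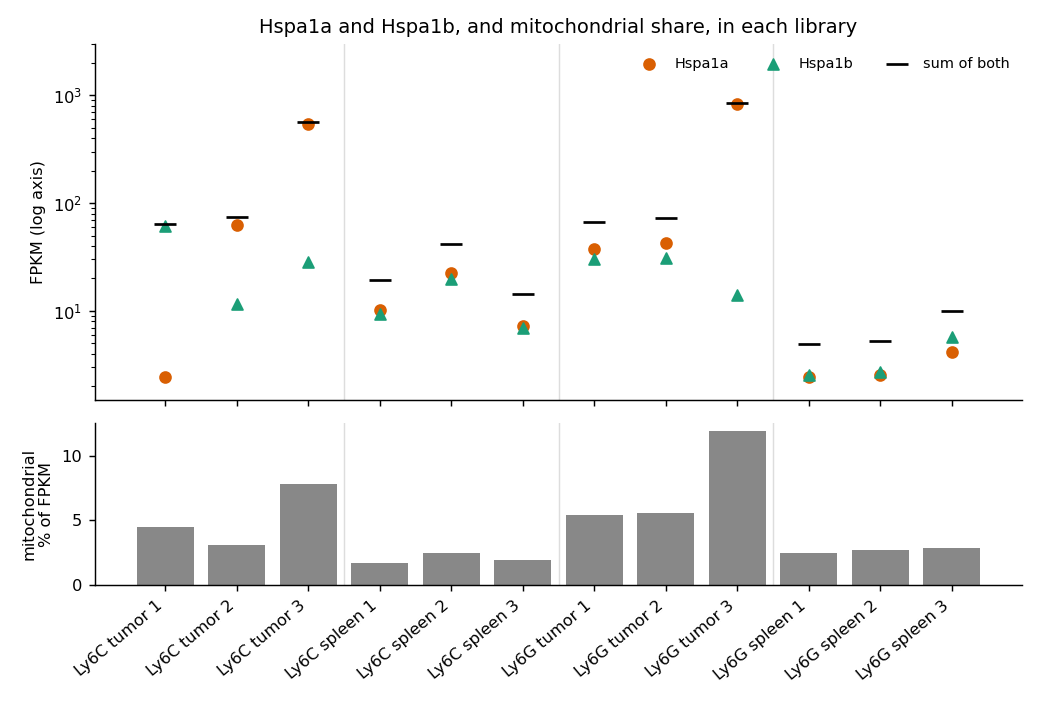
FPKM (log axis) of Hspa1a, Hspa1b and their sum in each library, above the mitochondrially encoded share of FPKM in the same library (percent). The sum is 64.3 to 74.3 FPKM in 4 tumor libraries and is 565 and 842 FPKM in the tumor libraries numbered 3, which also have the highest mitochondrial shares of their groups (7.84% and 11.9%).

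Hspa8 encodes HSC70, the HSP70 made in unstressed cells (ENSMUSG00000015656, chromosome 9, 40800984 to 40810087, plus strand), and had the second highest mean level of the 10 in all 4 groups. It had 439, 416 and 422 FPKM in Ly6C tumor, against 112, 220.2 and 112 FPKM in Ly6C spleen. It had 414, 278 and 238 FPKM in Ly6G tumor, against 133, 128 and 158 FPKM in Ly6G spleen. The tissues did not overlap under either label, but the changes, 1.59 ± 0.26 in Ly6C (limma, adjusted p = 0.000151) and 1.11 ± 0.26 in Ly6G (adjusted p = 0.00225), were among the smallest of the members. Hspa8 has 6 near copies in the annotation, of which 5 are pseudogenes, with at least 95% identity over 300 bases or more. Together these had 33.5% to 70.8% of the FPKM of Hspa8 in the 12 libraries, so its level is uncertain. The copies were higher in tumor as well, at 257 to 286 FPKM in Ly6C tumor and 168 to 217 FPKM in Ly6G tumor, against 62.0 to 89.1 FPKM in Ly6C spleen and 47.0 to 58.8 FPKM in Ly6G spleen.

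The exchange factor and J-domain partner of HSP70 moved much further than Hspa8. Hsph1 (HSP110, a member of the HSP70 family that releases ADP from HSP70; ENSMUSG00000029657, chromosome 5, 149614287 to 149636376, minus strand) had 45.3, 80.3 and 51.4 FPKM in Ly6C tumor, against 1.45, 3.16 and 1.88 FPKM in Ly6C spleen. It had 74.9, 60.2 and 38.7 FPKM in Ly6G tumor, against 1.68, 2.34 and 3.27 FPKM in Ly6G spleen. The lowest tumor library, at 38.7 FPKM, lay well above the highest spleen library, at 3.27 FPKM. The change was 4.24 ± 0.29 in Ly6C (limma, adjusted p = 9.26e-08) and 4.08 ± 0.29 in Ly6G (adjusted p = 1.48e-07). Relative to its partner, Hsph1 had 0.103 to 0.216 of the FPKM of Hspa8 in tumor, against 0.0126 to 0.0206 in spleen.

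Dnajb1, the HSP40 that stimulates the ATPase of HSP70 (ENSMUSG00000005483, chromosome 8, 83608193 to 83612653, plus strand), had 263, 302 and 184 FPKM in Ly6C tumor, against 31.6, 28.3 and 30.2 FPKM in Ly6C spleen. It had 273, 224 and 150.2 FPKM in Ly6G tumor, against 23.5, 23.8 and 27.3 FPKM in Ly6G spleen. The spleen libraries were tightly grouped and far below the tumor libraries. Its change was nearly equal under both labels, 2.99 ± 0.22 in Ly6C (limma, adjusted p = 1.56e-07) and 3.03 ± 0.22 in Ly6G (adjusted p = 1.61e-07). In each label the tumor library numbered 3 had the lowest Dnajb1 level of its group, the reverse of Hspa1a.

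Bag3, a nucleotide exchange factor that links HSP70 and small heat shock proteins to autophagy (ENSMUSG00000030847, chromosome 7, 128523616 to 128546981, plus strand), had 94.6, 104 and 81.4 FPKM in Ly6C tumor, against 5.93, 11.0 and 4.04 FPKM in Ly6C spleen. It had 96.4, 75.0 and 63.6 FPKM in Ly6G tumor, against 0.886, 0.847 and 1.91 FPKM in Ly6G spleen. The 2 tumor groups overlapped while the 2 spleen groups did not. The change was 3.65 ± 0.29 in Ly6C (limma, adjusted p = 2.95e-07) and 5.17 ± 0.29 in Ly6G (adjusted p = 1.97e-08).

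Of the cytosolic HSP90 genes, Hsp90ab1 (HSP90 beta, the constitutive form; ENSMUSG00000023944, chromosome 17, 45567775 to 45573271, minus strand) was the most abundant member in all 4 groups. It had 1653, 1776 and 1590 FPKM in Ly6C tumor, against 138, 199 and 121 FPKM in Ly6C spleen. In Ly6G tumor it had 1332, 1290 and 1014 FPKM, against 158, 161 and 222 FPKM in Ly6G spleen. Among all genes of a library it ranked between 20 and 29 in Ly6C tumor and between 29 and 42 in Ly6G tumor, against 210 to 338 in Ly6C spleen and 222 to 291 in Ly6G spleen. The change was 3.47 ± 0.21 in Ly6C (limma, adjusted p = 2.69e-08) and 2.75 ± 0.21 in Ly6G (adjusted p = 2.14e-07).

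Hsp90aa1 (HSP90 alpha, the stress-inducible form; ENSMUSG00000021270, chromosome 12, 110690605 to 110702728, minus strand) was the less abundant of the HSP90 genes per length. It had 209.5, 306 and 216 FPKM in Ly6C tumor, against 27.8, 38.3 and 31.3 FPKM in Ly6C spleen, and 245, 234 and 172 FPKM in Ly6G tumor, against 31.6, 24.3 and 38.5 FPKM in Ly6G spleen. The change was 2.86 ± 0.21 in Ly6C (limma, adjusted p = 1.82e-07) and 2.75 ± 0.21 in Ly6G (adjusted p = 2.87e-07). Hsp90ab1 had 5.80 to 7.89 times the FPKM of Hsp90aa1 in Ly6C tumor and 5.44 to 5.91 times in Ly6G tumor, against 3.88 to 5.20 times in Ly6C spleen and 5.02 to 6.62 times in Ly6G spleen. The constitutive form therefore led in every library, and its lead overlapped between the tissues under Ly6G but not under Ly6C. Hsp90aa1 has 3 near-copy pseudogenes, which together had 12.7% to 21.7% of its FPKM.

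Hspb1, the small heat shock protein HSP25 of the mouse (ENSMUSG00000004951, chromosome 5, 135887919 to 135889563, plus strand), was the least abundant member in all 4 groups and the only one below 1 FPKM in every spleen library. It had 7.32, 3.95 and 8.15 FPKM in Ly6C tumor, against 0.227, 0.321 and 0.149 FPKM in Ly6C spleen. It had 28.2, 5.55 and 29.5 FPKM in Ly6G tumor, against 0.145, 0.285 and 0.568 FPKM in Ly6G spleen. All tumor libraries lay above all spleen libraries, and Ly6G tumor replicate 2 lay within the range of Ly6C tumor. The change was 2.55 ± 0.48 in Ly6C (limma, adjusted p = 0.000399) and 3.77 ± 0.48 in Ly6G (adjusted p = 1.80e-05), sizes that the pseudocount of 1 lowers for a gene so low in spleen. Hspb1 has 2 near copies in the annotation, which had 0% to 26.5% of its FPKM.

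Hspd1, the mitochondrial chaperonin HSP60 (ENSMUSG00000025980, chromosome 1, 55077835 to 55088243, minus strand), had 178, 242 and 202 FPKM in Ly6C tumor, against 17.2, 24.9 and 15.5 FPKM in Ly6C spleen. It had 178, 158 and 131 FPKM in Ly6G tumor, against 22.3, 25.3 and 28.5 FPKM in Ly6G spleen. The tissues were far apart under both labels, with changes of 3.38 ± 0.19 in Ly6C (limma, adjusted p = 1.72e-08) and 2.57 ± 0.19 in Ly6G (adjusted p = 1.92e-07). Hspe1 encodes HSP10, the lid of the HSP60 chamber, and lies head to head with Hspd1. It rose with Hspd1, by 3.82 ± 0.29 in Ly6C (adjusted p = 2.00e-07) and 2.58 ± 0.29 in Ly6G (adjusted p = 6.47e-06). The FPKM of Hspd1 relative to Hspe1 lay between 1.46 and 1.51 in all 6 tumor libraries, against 1.69 to 2.56 in Ly6C spleen and 1.19 to 1.78 in Ly6G spleen. Hspd1 has 1 near-copy pseudogene, at 3.20% to 17.2% of its FPKM.

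Ordered by mean level, the first places were Hsp90ab1 and Hspa8 in every group. In Ly6C tumor, Hsp90ab1 averaged 1673 ± 94.7 FPKM (SD, n = 3) and Hspa8 426 ± 11.9 FPKM, followed by Dnajb1 at 250 ± 60.0, Hsp90aa1 at 244 ± 54.1, Hspd1 at 207 ± 32.5 and Hspa1a at 201 ± 293 FPKM, which did not differ beyond their spread. Bag3 at 93.4 ± 11.5 FPKM, Hsph1 at 59.0 ± 18.7 FPKM, Hspa1b at 33.9 ± 25.7 FPKM and Hspb1 at 6.47 ± 2.22 FPKM came last. In Ly6C spleen, Hsp90ab1 at 153 ± 41.0 FPKM and Hspa8 at 148 ± 62.5 FPKM overlapped, and so did Hsp90aa1 at 32.5 ± 5.34 FPKM and Dnajb1 at 30 ± 1.7 FPKM. The Ly6G groups kept Hsp90ab1 first, at 1212 ± 173 FPKM in tumor and 180.3 ± 35.8 FPKM in spleen, and Hspa8 second, at 310 ± 92 FPKM in tumor and 140 ± 16.2 FPKM in spleen.

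Ly6C was then compared with Ly6G within each tissue, the contrast the study names as its aim. In tumor 0 of the 10 members passed in limma, where 14.5% of all genes did, and 2 had an unadjusted p under 0.05. Hsp90ab1 was one of them (0.47 ± 0.21, adjusted p = 0.138), and Hspb1 the other (-1.32 ± 0.48, adjusted p = 0.0834). The 3 Ly6C tumor libraries lay above the 3 Ly6G tumor libraries for Hspa8 and Hsp90ab1, which 24.1% of all genes did. Without Ly6G tumor replicate 2, Hspb1 passed at -2.05 (adjusted p = 0.00317). In the same tumor libraries 17 of 20 pan-leukocyte genes were lower in Ly6C, and 5 of 13 immediate-early genes, which respond to tissue dissociation, were lower with 0 higher.

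In spleen only Bag3 passed, where 30.6% of all genes did. It was 1.79 ± 0.29 higher in Ly6C spleen than in Ly6G spleen (limma, adjusted p = 0.00102), and passed under all 24 alternatives. Hspa1a, Hspa1b and Dnajb1 also had all 3 Ly6C spleen libraries above all 3 Ly6G spleen libraries, an arrangement that 29% of genes showed. Hspa1b reached 1.43 ± 0.55 (adjusted p = 0.0707), Hspa1a 1.69 ± 1.55 (adjusted p = 0.462) and Dnajb1 0.26 ± 0.22 (adjusted p = 0.413). Further members passed in spleen under some alternatives. Hspd1 was lower in Ly6C spleen when scaled by the median of ratios (-0.63, adjusted p = 0.00815), after quantile normalization (-0.54, adjusted p = 0.0317), with array weights (-0.41, adjusted p = 0.0362) and without Ly6C spleen replicate 2 (-0.60, adjusted p = 0.0280), and Hsp90ab1 when scaled by the median of ratios (-0.48, adjusted p = 0.0424). Hspa1b was higher on the TPM scale (1.87, adjusted p = 0.0205), with array weights (1.46, adjusted p = 0.0188) and without Ly6C tumor replicate 1 or 2 (1.43 in both, adjusted p = 0.0398 and 0.0345), and Hspa1a in fits of 2 groups (1.69, adjusted p = 0.0412). Marker genes of other blood cells also differed between the spleen groups. All 8 B cell genes, all 6 tested of 8 T cell genes and all 8 erythroid genes were lower in Ly6C spleen, and 5 of 10 monocyte genes were higher with 1 lower. B cell genes summed to 261 to 397 FPKM in Ly6C spleen, against 775 to 1324 FPKM in Ly6G spleen, T cell genes to 6.62 to 9.31 FPKM in Ly6C spleen, against 20.4 to 34.7 FPKM in Ly6G spleen, and erythroid genes to 309 to 1159 FPKM in Ly6C spleen, against 1459 to 4170 FPKM in Ly6G spleen. The part of these cells in the chaperone differences was not tested.

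**Figure D4:**
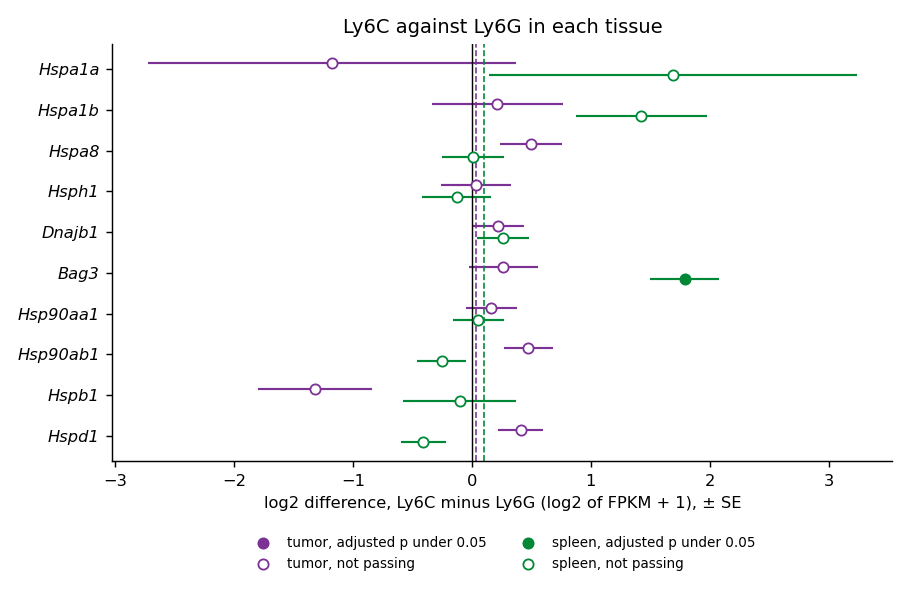
Difference between Ly6C and Ly6G libraries for each chaperone gene in tumor (upper point of a row) and in spleen (lower point), on the log2(FPKM + 1) scale; bars are limma standard errors, each group has n = 3, and dashed lines give the median of all genes tested. Filled points pass at an adjusted p under 0.05, which only Bag3 in spleen does.

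Whether the tissue change itself differed between the labels was tested as the difference of the 2 changes, Ly6C minus Ly6G. It passed for 2 members, 1 in each direction, where 6.02% of all genes were called higher and 15.8% lower. For Bag3 the difference was -1.52 ± 0.41, a smaller change in Ly6C (limma, adjusted p = 0.0218), and for Hspd1 it was 0.82 ± 0.27, a larger change in Ly6C (adjusted p = 0.0492). For Bag3 the labels differed in spleen, by 1.79, and not detectably in tumor, by 0.27 ± 0.29 (adjusted p = 0.571). The size of both depended on the scale: Bag3 was at -0.66 (adjusted p = 0.120) with a pseudocount of 5, and Hspd1 at 0.39 (adjusted p = 0.344) on the TPM scale. Without both tumor libraries numbered 3, Bag3 was at -1.57 (adjusted p = 0.0674) and Hspd1 at 0.71 (adjusted p = 0.164). The Bag3 call was also lost without Ly6C tumor replicate 3, Ly6G tumor replicate 1 or Ly6G spleen replicate 1 (adjusted p = 0.0510 to 0.0544), and that of Hspd1 without any one of 9 libraries (adjusted p = 0.0558 to 0.108). Hsp90ab1 resembled Hspd1 in size (0.73 ± 0.29, adjusted p = 0.0967) and passed without Ly6C spleen replicate 2 (0.93, adjusted p = 0.0229), when scaled by the median of ratios (0.96, adjusted p = 0.0121) and with array weights (0.65, adjusted p = 0.0317). Hspb1 passed without Ly6G tumor replicate 2 (-1.95, adjusted p = 0.00420).

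The rest of the chaperone network was read from 9 lists of genes, none of which holds a member, and each count reads against the 46.2% of all genes called higher in Ly6C and the 51.5% in Ly6G. Other cytosolic HSP70 and HSP110 genes had 6 higher of 7 tested in Ly6C tumor and 7 of 7 in Ly6G tumor, with 0 lower. Quantile normalization and scaling by the median of ratios each gave 5 of 7 under both labels. Of these 7, Hspa1l and Hspa12b reached the filter through tumor alone, as did Dnaja4, Bag2, Bag4 and Hsf4 in other lists. Of the other 5 HSP70 and HSP110 genes, 4 were higher in Ly6C tumor and 5 in Ly6G tumor. Hspa12b, a distant relative of HSP70, had 9.82 ± 1.43 FPKM in Ly6C tumor and 9.71 ± 0.993 FPKM in Ly6G tumor, against 0.210 ± 0.0419 FPKM in Ly6C spleen and 0.0950 ± 0.0432 FPKM in Ly6G spleen (SD, n = 3 each). J-domain partners were mixed, with 7 higher and 3 lower of 12 in Ly6C (5 and 4 when scaled by the median of ratios) and 5 higher and 3 lower in Ly6G. Without Dnaja4, 6 of 11 J-domain partners were higher in Ly6C and 4 of 11 in Ly6G. Their balance in Ly6G turned with the scaling of libraries. It was 7 higher and 2 lower on the TPM scale, quantile normalization made it 4 and 5, and factors from the median of ratios made it 4 and 6. Dnajb2 rose under both labels (1.74 ± 0.16 in Ly6C and 1.28 ± 0.16 in Ly6G), as did Dnajb4 (1.64 ± 0.17 in Ly6C and 1.35 ± 0.17 in Ly6G), whereas Dnajc9, which also chaperones histones, fell in both (-1.39 ± 0.11 in Ly6C and -1.33 ± 0.11 in Ly6G). BAG family and related HSP70 partners had 7 higher and 0 lower of 8 under both labels, led by St13, which binds HSP70 and keeps it in its ADP state (2.22 ± 0.17 in Ly6C and 1.83 ± 0.17 in Ly6G). Without Bag2 and Bag4, 5 of 6 were higher under both labels. Of all 8, quantile normalization gave 5 higher in Ly6C and 6 in Ly6G, and scaling by the median of ratios gave 6 under both.

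HSP90 co-chaperones had 8 of 12 higher with 2 lower in Ly6C and 9 of 12 higher with 1 lower in Ly6G, where in Ly6G quantile normalization gave 8 and 3 and scaling by the median of ratios 7 and 3. Fkbp4, the immunophilin that HSP90 carries to steroid receptors, rose by 2.85 ± 0.21 in Ly6C and 2.60 ± 0.21 in Ly6G. Unc45a, a myosin chaperone, fell in Ly6C (-0.37 ± 0.12) and rose in Ly6G (0.40 ± 0.12), although in Ly6G it was at 0.07 after quantile normalization and at -0.08 when scaled by the median of ratios, and did not pass. Sugt1 fell in both (-0.29 ± 0.11 in Ly6C and -0.59 ± 0.11 in Ly6G), but its Ly6C call was lost in fits of 2 groups, without both tumor libraries numbered 3, and without Ly6C tumor replicate 1 or 3 or Ly6C spleen replicate 3 (adjusted p = 0.0519 to 0.0896). Small heat shock proteins included Hspb8, which works with Bag3 and had 40.4, 44.1 and 39.5 FPKM in Ly6C tumor and 37.0, 33.8 and 27.5 FPKM in Ly6G tumor. It was listed at 0 in 5 of the 6 spleen libraries and at 0.0266 FPKM in the other one. Of the 8 genes of that list 3 were tested, of which Hspb8 and Cryab reached the filter through tumor alone, so no count is read from them.

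Among heat shock factors and their regulators, 3 of 4 tested rose and 0 fell under both labels, while quantile normalization gave 3 higher and 1 lower in Ly6C, and scaling by the median of ratios gave 3 and 1 in Ly6C and 2 and 1 in Ly6G. Without Hsf4, 2 of 3 rose under both labels. Hsf1 had 6.08, 6.0 and 5.27 FPKM in Ly6C tumor, against 3.09, 3.97 and 2.65 FPKM in Ly6C spleen. It had 6.19, 6.86 and 5.98 FPKM in Ly6G tumor, against 1.72, 1.56 and 2.30 FPKM in Ly6G spleen. Its groups did not overlap between tissues, and it was 0.56 ± 0.14 higher in Ly6C spleen than in Ly6G spleen (limma, adjusted p = 0.00971, and 0.0721 in fits of 2 groups). Hsf4, another heat shock factor, rose by 2.35 ± 0.11 in Ly6C and 2.09 ± 0.11 in Ly6G.

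The TRiC chaperonin, which folds actin and tubulin, and its partner prefoldin had 13 higher of 14 in Ly6C and 12 in Ly6G, with 0 lower under either label (10 against 2 in Ly6G when scaled by the median of ratios). Cct3, a TRiC subunit, rose by 2.84 ± 0.17 in Ly6C and 2.32 ± 0.17 in Ly6G. All 11 mitochondrial chaperone and protease genes rose under both labels, with Hspe1 the largest. In Ly6G, quantile normalization and scaling by the median of ratios each gave 10 higher and 0 lower of these 11. Endoplasmic reticulum chaperones had 7 higher and 2 lower of 12 in Ly6C and 8 higher and 1 lower in Ly6G (9 and 0 on the TPM scale, 7 and 2 when scaled by the median of ratios), with the disulfide isomerase Pdia6 at 3.41 ± 0.16 in Ly6C and 3.54 ± 0.16 in Ly6G and the J-domain protein Dnajb11 at -0.63 ± 0.11 in Ly6C and -0.31 ± 0.11 in Ly6G. In Ly6G, Dnajb11 did not pass on the TPM scale (0.02, adjusted p = 0.845) or without Ly6G tumor replicate 1 or Ly6G spleen replicate 1 (adjusted p = 0.0730 and 0.0560). List medians ran from 0.42 to 1.65 in Ly6C and from 0.23 to 1.28 in Ly6G, all below the 2.92 and 2.89 of the 10 members; the lowest in each label was that of the J-domain list, which in Ly6G lay below the 0.43 of all genes. The medians of the lists and of the members keep the genes that tumor alone carried through the filter. Fibroblast genes, of which 7 of 9 reached the filter through tumor alone, summed to 214 to 391 FPKM in Ly6C tumor and 154 to 375 FPKM in Ly6G tumor, against 6.28 to 13.2 FPKM in Ly6C spleen and 8.25 to 9.10 FPKM in Ly6G spleen. In the same comparisons immediate-early genes had 3 higher and 5 lower of 13 in Ly6C and 9 higher and 1 lower in Ly6G. Over all genes, 46.2% were higher and 30.5% lower in Ly6C, and 51.5% and 24.7% in Ly6G.

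**Figure D5:**
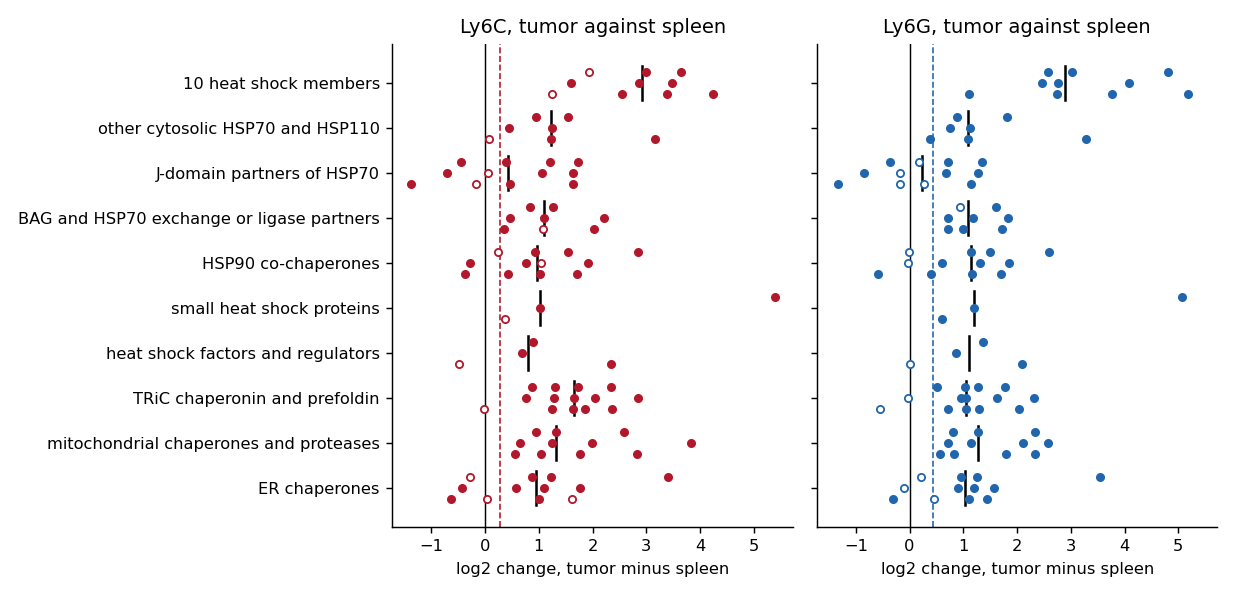
Change between tumor and spleen (log2 of FPKM + 1) of each tested gene in the 10 members and 9 other chaperone lists, for Ly6C on the left and Ly6G on the right. Filled points pass at an adjusted p under 0.05, the black bar is the list median and the dashed line the median of all genes tested (0.27 and 0.43); the members have the highest median, 2.92 and 2.89.

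Between the labels in tumor, 7 of 14 TRiC and prefoldin genes were higher in Ly6C with 0 lower, where 5.8% of all genes were higher, but 0 passed without both tumor libraries numbered 3 or on the TPM scale. Pfdn4, a prefoldin subunit, had the largest of these differences (0.58 ± 0.17, limma, adjusted p = 0.0435). Bag1, Hsbp1 and Grpel1 were higher in Ly6C tumor by 0.40 ± 0.12, 0.39 ± 0.11 and 0.40 ± 0.10, and Dnajc5 and Unc45a were lower, by -0.60 ± 0.09 and -0.46 ± 0.12. None of these 6 calls held without both tumor libraries numbered 3 (adjusted p = 0.0508 to 0.278), and the 4 higher ones did not pass on the TPM scale either (adjusted p = 0.145 to 0.220). Leaving out any 1 of the 6 tumor libraries ended the calls of Bag1, Hsbp1, Pfdn4 and Unc45a, and any but Ly6G tumor replicate 1 that of Grpel1. The calls of Bag1, Hsbp1 and Pfdn4 were also lost without Ly6C spleen replicate 1 or Ly6G spleen replicate 1, that of Bag1 without Ly6G spleen replicate 3 and that of Pfdn4 without Ly6G spleen replicate 2 (adjusted p = 0.0505 to 0.157 over all these). In spleen, 7 of 12 endoplasmic reticulum chaperones were higher in Ly6C with 0 lower, where 22.1% of all genes were higher (4 and 1 when scaled by the median of ratios). Sdf2l1, a component of the endoplasmic reticulum chaperone complex, had 45.0, 61.5 and 32.8 FPKM in Ly6C spleen, against 9.52, 9.49 and 13.8 FPKM in Ly6G spleen (1.96 ± 0.23, adjusted p = 0.000208). Bag6, Ppp5c and Hspa4l were higher in Ly6C spleen by 0.80 ± 0.15, 0.59 ± 0.15 and 0.50 ± 0.15, and Hspe1 and Dnajc7 lower, by -0.84 ± 0.29 and -0.62 ± 0.12. Sdf2l1 and Bag6 passed under all 24 alternatives. Ppp5c did not pass in fits of 2 groups (adjusted p = 0.0690), nor Dnajc7 on the TPM scale (-0.32, adjusted p = 0.0599). Hspa4l did not pass with a pseudocount of 5 (0.20, adjusted p = 0.119), after quantile normalization (0.36, adjusted p = 0.0844), or without replicate 2 or 3 of either spleen group (adjusted p = 0.0554 to 0.0650). Hspe1 was lost under 16 of 24 alternatives, among them the TPM scale (-0.57, adjusted p = 0.166) and every left-out library except Ly6C spleen replicate 2 and Ly6G spleen replicate 1.

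The pattern over the 12 libraries was also compared with that of every other tested gene, as the root mean square difference of log2(FPKM + 1) after each gene was centred on its own mean. Hsp90ab1 and Hspd1 shared their nearest gene, Npm1 (nucleophosmin, a nucleolar protein), at 0.0929 and 0.105, and were 0.133 from each other, the closest pair of members. Npm1 averaged 230.3 FPKM in Ly6C tumor and 152 FPKM in Ly6G tumor, against 19.9 FPKM in Ly6C spleen and 25.0 FPKM in Ly6G spleen. Hsp90aa1 was nearest to Nop56, another nucleolar protein gene, at 0.160, and its nearest member was Dnajb1 at 0.244. Dnajb1 was nearest to Ubtd2 at 0.144, Hspa8 to Ddx10 at 0.154, Hsph1 to the phosphatase gene Dusp4 at 0.226, Bag3 to the lamin gene Lmna at 0.338 and Hspb1 to Igfbp3 at 0.415. Hspa1a had no close neighbour, its nearest gene being Apold1 at 1.72. Hspa1a and Hspa1b were not each other's nearest member: Hspa1a was nearest to Hspb1, at 1.88, and Hspa1b to Hspa8, at 0.774.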

How the data were processed

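Total RNA from 12 mouse samples was sequenced in read pairs on an Illumina instrument, per the labels' protocols. Per the submitters' processing notes, the genome build was GRCm38 and the tools included featureCounts 1.5.0-p3 and HISAT2 2.0.5. The deposited matrix gives the authors' FPKM values, 1 column per library. Which tool made the FPKM, the annotation release, strand use and the handling of reads that match several genes were not given in the sources used here. Of its 54674 entries, 570 name no gene (0.463% to 1.04% of FPKM) and were left out. Symbols and coordinates came from GENCODE M21. Counts were not recovered: only 23.7% to 27.7% of low values lay within 0.05 steps of a whole multiple, so the depth is unknown and no counting interval is given.

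The 13610 genes that reached 1 FPKM in 3 or more of the 12 libraries were transformed as log2(FPKM + 1) and fitted with 4 group means in limma 3.58.1 (eBayes with trend; 8 residual and 3.4 prior degrees of freedom; R 4.3.3, Python 3.11.15). This scale understates changes of low genes. The 5 contrasts were tumor minus spleen per label, Ly6C minus Ly6G per tissue, and the difference of the tissue changes. Tests were two-sided, with Benjamini-Hochberg adjustment over all genes and a threshold of 0.05. The model was also run on simulated data in which 200 genes changed, far fewer than pass between the tissues here, so no conclusion is drawn from that run. Replicate numbers were not used as blocks.

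The members and lists were chosen with earlier results of these data known. All members are named in every comparison, and from each list the passing genes with the highest and lowest tissue change and the largest difference between labels. Hsf1 tissue values, the HSP70 pair sum and member ratios were added after values were seen. From marker lists the gene with the highest mean was to be named; Ly6g, Ly6c1, Ly6c2, genes at 0 and list genes that tumor alone carried through the filter were added. Open reading frames were aligned from GENCODE transcripts, and upstream windows came from RefSeq (GRCm38.p6). Alternatives were pseudocounts of 0.1 and 5, no filter or one at 5 FPKM, quantile normalization, median-of-ratios factors, the TPM scale, array weights, a fit without variance trend, fits of 2 groups, a replicate block, and each library left out in turn. Leaving out both tumor libraries numbered 3 was added after seeing the data. The gene nearest to Hspa1b is not reported here.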

Additional observations from a re-analysis of the deposited data

Results flagged for a closer look

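The change between tumor and spleen differed between the labels for 2 of the 10 members and for 9 of the other chaperone genes named above. Over all genes tested, 6.02% were called higher and 15.8% lower in this difference, so the member count does not set the members apart. The 9 were looked for only among genes named for the largest passing changes in the other contrasts, so no share is read from them. Each difference is the Ly6C change minus the Ly6G change on the log2(FPKM + 1) scale (limma, Benjamini-Hochberg adjusted p under 0.05 over all genes tested), and their causes were not tested. Among the members it was -1.52 for Bag3 and 0.82 for Hspd1. For Bag3 the labels were apart in spleen, where Ly6C lay at 5.93, 11.0 and 4.04 FPKM against 0.886, 0.847 and 1.91 FPKM in Ly6G, and overlapped in tumor.

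The difference was also positive for Hspe1 (1.25 ± 0.41, adjusted p = 0.0491), the partner of Hspd1, and for Dnajc7 (0.89 ± 0.17, adjusted p = 0.00437), Hsbp1 (0.89 ± 0.15, adjusted p = 0.00277) and Pfdn4 (0.76 ± 0.24, adjusted p = 0.0426). Dnajc7 fell in Ly6G, from a mean of 22.1 FPKM in spleen to 11.9 FPKM in tumor. In Ly6C its means were close, at 14.0 FPKM in spleen and 14.6 FPKM in tumor. The difference was negative for Sdf2l1 (-1.53 ± 0.32, adjusted p = 0.00744), Bag6 (-0.82 ± 0.21, adjusted p = 0.0169), Unc45a (-0.77 ± 0.16, adjusted p = 0.0079), Hsf1 (-0.68 ± 0.19, adjusted p = 0.0288) and Dnajc5 (-0.53 ± 0.13, adjusted p = 0.0148). For Bag6, Hsf1 and Sdf2l1 the labels differed in spleen, with higher levels in Ly6C spleen than in Ly6G spleen. Dnajc7, Hsbp1 and Hspe1 were lower in Ly6C spleen (-0.62, -0.50 and -0.84, limma, adjusted p = 0.00267, 0.00487 and 0.0464). Each of these lower calls was lost on the TPM scale (adjusted p = 0.0599, 0.218 and 0.166).

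Of these 9 differences, those of Sdf2l1 and Unc45a passed under all 23 alternatives. Those of Dnajc7 (0.49, adjusted p = 0.0557) and Hsbp1 (0.46, adjusted p = 0.0518) were lost on the TPM scale. Hspe1 was lost under 15 of 23 and Pfdn4 under 13 of 23, the TPM scale (0.86 and 0.49, adjusted p = 0.159 and 0.251) and the fit without both tumor libraries numbered 3 (adjusted p = 0.161 and 0.155) among them. Single left-out libraries ended the call of Hspe1 except for Ly6C spleen replicate 2 and Ly6G spleen replicate 1, and that of Pfdn4 except for Ly6C spleen replicate 2, Ly6G spleen replicate 2 and Ly6G tumor replicate 2. Without both tumor libraries numbered 3 the calls of Bag6 (adjusted p = 0.0842), Hsf1 (adjusted p = 0.102) and Dnajc5 (adjusted p = 0.0741) were lost as well. Scaling by the median of ratios ended those of Bag6 (-0.59, adjusted p = 0.0609) and Dnajc5 (-0.29, adjusted p = 0.208), and quantile normalization that of Dnajc5 (-0.37, adjusted p = 0.0931). Hsf1 was lost with no expression filter (adjusted p = 0.0551) and without Ly6C tumor replicate 3, Ly6G tumor replicate 1 or 2, or Ly6G spleen replicate 1 or 2 (adjusted p = 0.0513 to 0.0734).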

How the results depend on the processing

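The tissue counts of the members held under all 24 alternatives, at 8 to 9 of 10 in Ly6C and 9 to 10 of 10 in Ly6G. Leaving out single libraries gave the same ranges, 8 to 9 and 9 to 10. Scaling moved the median change of all genes in Ly6G (0.43 as deposited) to 0.82 on the TPM scale, to -0.02 after quantile normalization and to 0.05 when scaled by the median of ratios, and that of the members (2.89) to 3.26, 2.72 and 2.38; in Ly6C, 0.27 became 0.23, -0.00 and 0.05. Of the genes passing, the share higher in tumor was 60.2% in Ly6C as deposited and 57.1%, 50% and 52.3% on these scales, and 67.6%, 76.0%, 49.8% and 52.2% in Ly6G.

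Comparisons of the labels were less firm. Left-out libraries gave 746 to 2618 genes and 0 to 1 members in tumor, 1 to 2 members in spleen, and 0 to 3 members in the difference of changes. Members passing in spleen numbered 2 on the TPM scale, after quantile normalization and in fits of 2 groups, and 3 with array weights and with median-of-ratios factors. Members passing in the difference of changes numbered 0 with a pseudocount of 5, with no filter and without both tumor libraries numbered 3, and 1 on the TPM scale. Over all genes, a filter of 5 FPKM, which tests fewer genes, left 6694 calls in Ly6C and 6648 in Ly6G, fits of 2 groups 2586 in spleen, array weights 3433 in tumor, the TPM scale 4931 in the difference, and the fit without both tumor libraries numbered 3 gave 260 in tumor and 1417 in the difference. The cause was not tested. Some changes of members that did not pass also changed sign between alternatives, Hspa1b in tumor among them (0.21, and -0.36 to 0.81 with single libraries left out).

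The replicate block left 1 member passing in the difference of changes, with Hspd1 at an adjusted p of 0.0512 (limma), and changed no other member call. The labels tie same-numbered samples by number only. The correlations of their deviations from the group means ran from -0.36 to 0.279, against -0.393 to 0.427 for samples of different number. With 3 libraries per group these values cannot decide whether samples share an animal or a batch.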
